A study of Mus musculus with 23 samples.

Results

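The comparison set 3 Blimp1-null embryonic stem cell (ESC) lines, JAG1, JAG2 and B12, against 3 Blimp1 heterozygous ESC lines, PAN1, PUM3 and CHE4. They were chosen by title, as the arrays labelled ESC-/- and ESC+/- without the suffix for 2i medium, and make up 6 of the 23 arrays of the study. Each line had 1 array on an Illumina WG-6 mouse bead array, so n counts lines. The labels give all 6 lines the strain background C57Bl6/CBA/129 and state a growth condition only for the 2i arrays. The study describes the other condition as conventional culture with LIF and fetal calf serum, called serum here. The null lines are homozygous and the control lines heterozygous for the same Blimp1 mutant allele, so that every line carries at least 1 mutant copy, and no wild-type ESC line was analysed here. The study derived more than 1 line from single embryos in some experiments, and neither the labels nor the methods give the embryo behind each of these lines. The same 6 lines were also profiled in 2i/LIF, the N2B27 medium with LIF, the MEK inhibitor PD0325901 and the GSK3 inhibitor CHIR99021. Epiblast stem cells (epiSCs, 2 null and 3 heterozygous lines) and ESC-like cells reverted from epiSCs (rESCs, 3 null and 2 heterozygous lines) are used here only for the genes that lead the serum comparison.

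Blimp1, the product of Prdm1, is a zinc finger protein with a PR domain that represses transcription. It is needed for primordial germ cells to form and for B cells to become plasma cells, and in the early germ line it represses somatic genes. ESCs come from the epiblast of the blastocyst and are kept pluripotent by Pou5f1 (Oct4), Sox2 and Nanog. The comparison asked whether ESC lines without Blimp1 differ in expression from heterozygous lines. Prdm1 itself was not analysed here, so that the arrays do not check the genotype labels.

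The comparison found no gene called between the genotypes. Single lines of 1 genotype differed from each other by more than 2-fold at 9 to 1393 probes a pair. Pairs of a null with a heterozygous line differed so at 192 to 1389 probes, and these counts are no test. A level below is the log2 of a normalized bead signal, on which a difference of 1 is a 2-fold difference. A probe was tested where its detection p, the rank of its signal among the negative controls of its array, was under 0.01 on at least 3 of the 6 arrays. Differences are null minus heterozygous, with limma's moderated standard error and the p-value adjusted over all tested probes after Benjamini-Hochberg. Calls were made where that adjusted value was below 0.01, the threshold the study used. Of 13527 tested probes, 0 were called (0%), and 0 passed 0.05 (0%). The smallest adjusted p was 0.157. At an unadjusted p under 0.05 there were 608 probes, or 4.49%, and under 0.01 there were 110, or 0.813%. The null lines lay wholly above or below the heterozygous lines at 1413 probes (10.4%), above at 662 (4.89%) and below at 751 (5.55%). The mean difference exceeded 2-fold at 108 probes (0.798%), of which 77 (0.569%) were higher and 31 (0.229%) lower in null lines, and at 60 (0.444%) the groups did not overlap either. The median absolute difference was 0.18 and the median half-width of the 95% interval 0.52, and at 10556 probes (78%) the interval lay within 2-fold either way. At the other probes the interval reached or passed a 2-fold difference.

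**Figure D1:**
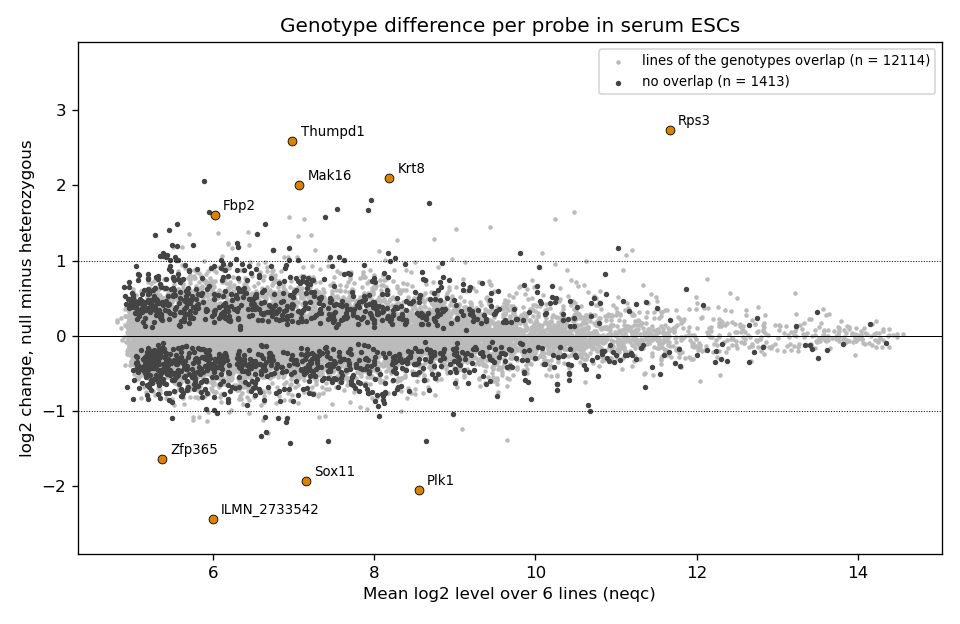
Difference in log2 level, null minus heterozygous, against the mean log2 level over the 6 serum ESC lines, 1 point for each of 13527 tested probes. Dark points are the 1413 probes whose 3 null and 3 heterozygous lines do not overlap, dotted lines mark a 2-fold difference, and orange points are named probes, among them Fbp2 at 1.60 and Zfp365 at -1.64.

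The 6 lines expressed the ESC programme. Pou5f1 stood at 11.53, 11.59 and 11.67 in JAG1, JAG2 and B12, against 11.13, 11.11 and 11.83 in PAN1, PUM3 and CHE4. Esrrb, a nuclear receptor that maintains naive cells, had levels of at least 11.22 in every line, and all 13 core pluripotency genes and all 19 naive genes with a probe were detected in at least 1 line. Fgf5 and Foxa2, which mark the primed epiblast, were not tested: Foxa2 was detected in none of the 6 lines and Fgf5 only in 1 heterozygous line. Other epiblast and epiSC genes were expressed. Of 20 with a probe, 10 were detected in at least 1 line, and Otx2, Pou3f1, Nodal and Dnmt3b in all 6. Each array detected between 12781 and 14113 probes. Of 23 fibroblast genes with a probe, 19 were detected in at least 1 ESC line, which bears on feeder cells. Their summed linear signal ran from 7163 to 8614 in null lines and from 8280 to 11305 in heterozygous lines. With all 23 arrays normalized together, the same genes summed to 108473 on the array of mouse embryonic fibroblasts, against 7300 to 11322 on the 6 serum arrays. Col1a2, Col3a1, Col5a2 and Pdgfrb were detected in none of the 6 lines. The part of feeder RNA in any difference was not tested.

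Since Blimp1 binds DNA, the promoters of Fbp2 and Zfp365, the named genes with the smallest p above and below the heterozygous lines, are shown, with the letters of a Blimp1-type site searched on both strands. The motif was AGNGAAAG, the core shared by sites of Blimp1 and of interferon regulatory factors, and capitals mark its matches and those of the shorter GAAAG that it contains. Both sequences are from RefSeq on GRCm38.p6, 250 bases before to 50 after the start, printed 5′ to 3′ on the gene's strand. They lie at chr13:62858351-62858650 (minus strand) and chr10:67912613-67912912 (minus strand).
Fbp2: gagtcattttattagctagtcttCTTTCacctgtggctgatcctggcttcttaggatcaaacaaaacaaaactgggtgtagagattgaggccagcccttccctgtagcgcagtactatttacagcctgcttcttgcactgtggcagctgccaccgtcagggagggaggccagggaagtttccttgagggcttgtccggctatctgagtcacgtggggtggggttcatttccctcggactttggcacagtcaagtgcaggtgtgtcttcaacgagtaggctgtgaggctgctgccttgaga
Zfp365: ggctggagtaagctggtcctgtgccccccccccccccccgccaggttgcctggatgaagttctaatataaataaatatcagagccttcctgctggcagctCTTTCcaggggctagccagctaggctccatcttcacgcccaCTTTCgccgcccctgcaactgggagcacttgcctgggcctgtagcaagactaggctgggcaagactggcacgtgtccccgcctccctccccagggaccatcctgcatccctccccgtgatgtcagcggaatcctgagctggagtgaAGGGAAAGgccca
The longer motif had 0 matches in the Fbp2 window and 1 in the Zfp365 window, beyond the start site. Of 32851 such windows of 300 bases in the RefSeq table, 8.63% held it and 57.3% held GAAAG. Among the genes with the largest differences described below, all 20 matched a window, and 1 of 10 genes higher and 1 of 10 genes lower in null lines held the longer motif. A match of letters is a description and not a site.

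Fbp2 encodes the muscle isoform of fructose-1,6-bisphosphatase, which turns fructose-1,6-bisphosphate into fructose-6-phosphate in gluconeogenesis. The gene lies at chr13:62836884-62858400 on GRCm38. Its probe, ILMN_2634905, stood at 6.71, 6.70 and 7.04 in JAG1, JAG2 and B12, against 5.22, 4.99 and 5.43 in PAN1, PUM3 and CHE4. All 3 null lines were above all 3 heterozygous lines, and the probe was detected in every null line and in 2 of 3 heterozygous lines. The mean was 6.82 ± 0.20 in null lines and 5.21 ± 0.22 in heterozygous lines (SD, n = 3 each). The difference was 1.60 with a standard error of 0.196, which did not pass the threshold (limma, unadjusted p = 4.81e-05, adjusted p = 0.217). An exact permutation test over the lines, two-sided, gave p = 0.1, the smallest that 3 against 3 allows. Every probe whose groups do not overlap has that value, so the permutation test adds nothing on Fbp2. The size depended on background correction, since the difference was 0.85 with quantile normalization alone and 0.67 in the authors' value table.

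In 2i/LIF the Fbp2 levels of the genotypes overlapped. On a scale normalized over 22 arrays, JAG1, JAG2 and B12 had 8.44, 8.31 and 6.69 in 2i/LIF, against 7.46, 7.76 and 6.31 in PAN1, PUM3 and CHE4. B12, the null line with the highest level in serum (7.10 on that scale), lay below PAN1 and PUM3, whereas the other 5 lines were all higher in 2i/LIF than in serum. The difference in 2i/LIF was 0.65 with a standard error of 0.53 (limma, adjusted p = 0.909). The genotype difference was not shown to differ between media, with an interaction of -0.98 and a standard error of 0.62 (limma without pairing by line, adjusted p = 0.998). In epiSCs the probe was not detected in any of the 5 lines. In rESCs it was detected in 1 null line, J2.3 at 6.34, and in 1 heterozygous line, BL7 at 6.29, while null BL2 and BL6 had 4.49 and 4.94 and heterozygous BL3 had 4.79.

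No other gene of the pathway had an unadjusted p under 0.05. Of 18 fructose bisphosphate and gluconeogenesis genes, 10 had a probe and 9 were tested, and their median difference was -0.02, where the median over all tested probes was 0.00. Pfkp and Pfkl, subunits of phosphofructokinase, which catalyses the opposite step of glycolysis, differed by 0.30 and -0.32 (limma, adjusted p = 0.91 and 0.919). Fbp1, the liver isoform, was not analysed here. Among 10 tested glycolysis genes the median difference was -0.02, and Pkm, a pyruvate kinase, stood at 11.93, 11.91 and 12.26 in null lines, against 12.76, 12.76 and 12.13 in heterozygous lines.

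Zfp365, which encodes a zinc finger protein, had the smallest p of all probes. Its probe ILMN_2966034 was not detected in any null line, at 4.59, 4.57 and 4.46, and was detected in every heterozygous line, at 6.19, 6.34 and 6.02. The fitted difference was -1.64 with a standard error of 0.17 (limma, unadjusted p = 1.46e-05, adjusted p = 0.157). Since null signals were at background, a bound was taken on the background-corrected scale. It used the lowest detected signal of each null array, or the signal of the probe where that was higher. On that scale the signal of this probe in heterozygous lines was at least 2.17-fold higher. The difference was smaller by other processing, at -0.74 with quantile normalization alone and -0.55 in the authors' value table. The pattern was the same in 2i/LIF, where JAG1, JAG2 and B12 had 4.42, 4.41 and 4.58, against 5.87, 6.0 and 6.68 in PAN1, PUM3 and CHE4 (adjusted p = 0.27, limma). A second Zfp365 probe, ILMN_1217442, did not separate the genotypes. It stood at 6.53, 6.37 and 6.89 in null lines, against 7.0, 6.19 and 7.38 in heterozygous lines. In epiSCs and rESCs ILMN_2966034 was detected in no line of either genotype. Zfp365 lies on chromosome 10, as Prdm1 does, at a distance of 23.4 Mb.

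ILMN_2733542, a probe that carries no gene symbol, had the next smallest p. It was not detected in null lines, at 4.83, 4.85 and 4.65, and was detected in heterozygous lines at 6.87, 6.95 and 7.80. The fitted difference was -2.43 with a standard error of 0.27 (limma, adjusted p = 0.157). Heterozygous lines were at least 4.41-fold higher by the bound and on the scale used for Zfp365. With quantile normalization alone the difference was -1.30, and in the authors' value table it was -1.04. In 2i/LIF the null lines were again not detected and all 3 heterozygous lines were, with a difference of -1.99 (limma, adjusted p = 0.0191). It was 1 of 4 probes in 2i/LIF with an adjusted p under 0.05 (0.0299% of 13380). Outside ESCs the order did not hold. Null BL6 had 5.92 as epiSCs and 6.89 as rESCs, both detected, as was null J2.3 as rESCs at 5.21, whereas no heterozygous epiSC or rESC line was detected. The count of 0 in serum depended on the fit for these probes: with array weights both ILMN_2733542 and Zfp365 were called (limma, adjusted p = 0.00987 each). With normalization and spread shared over more arrays 1 of them was called, ILMN_2733542 over 12 arrays (adjusted p = 0.00264) and Zfp365 over 22 arrays (adjusted p = 0.00297). The array weights were 7.63 for JAG1 and 1.88 for JAG2, against 0.32 for B12 and 0.33 for CHE4, so the weighted fit leaned on JAG1. With JAG1 and JAG2 averaged as 1 replicate, the smallest adjusted p was 0.995 (limma).

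**Figure D2:**
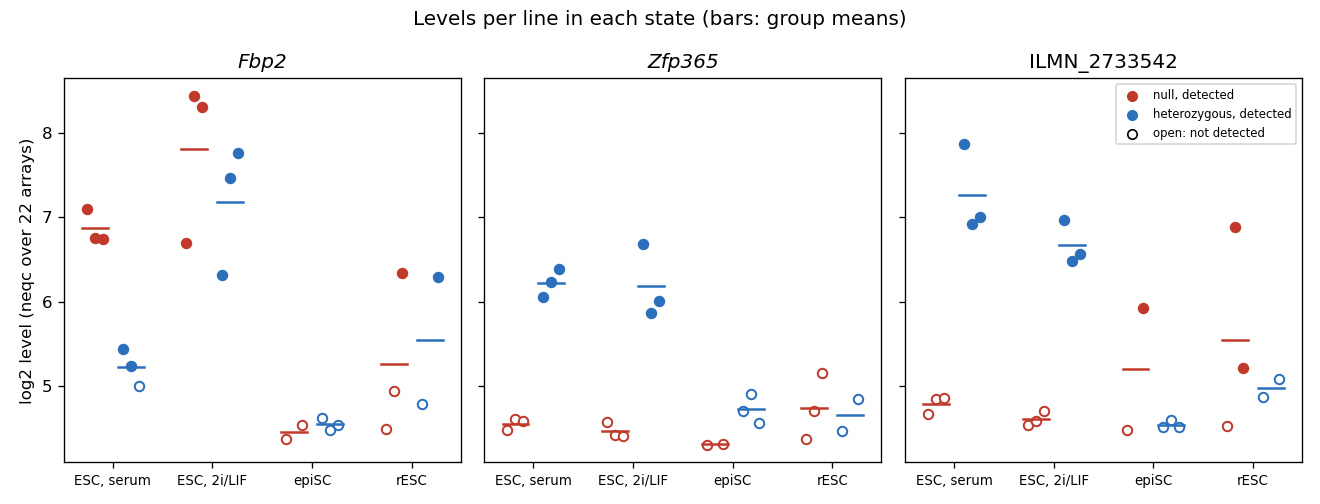
Log2 level of Fbp2, Zfp365 (ILMN_2966034) and ILMN_2733542 in each line, with null lines left of heterozygous lines in serum ESCs, 2i/LIF ESCs, epiSCs and rESCs. Filled points were detected at p under 0.01, open points were not, and bars are group means. Null and heterozygous lines separate in serum for all 3 probes and in 2i/LIF for Zfp365 and ILMN_2733542 but not for Fbp2.

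Beyond Fbp2, the largest differences above the heterozygous lines, among named probes whose groups did not overlap, were those of Rps3, Krt8, Fthl17f, Elobl, Krt18, Spic, Slc1a1, Khdc3 and Xist, and none was called. Rps3, a protein of the small ribosomal subunit, had 12.86, 12.84 and 13.41 in JAG1, JAG2 and B12, against 10.79, 9.18 and 10.92 in PAN1, PUM3 and CHE4. Its difference was 2.74 with a standard error of 0.45 (limma, adjusted p = 0.769). Another Rps3 probe, ILMN_2637639, differed by only 0.04 and its groups overlapped. Rps3 has processed copies elsewhere in the genome, and what each probe binds was not tested. Krt8 and Krt18 encode the keratins of simple epithelia, trophectoderm included. Krt8 stood at 9.35, 9.34 and 9.02 in null lines, against 8.12, 7.49 and 5.80 in heterozygous lines, with CHE4 lowest. Krt18 stood at 8.45, 8.76 and 7.31 in null lines, against 7.21, 6.97 and 5.59 in heterozygous lines, and the gap between B12 and PAN1 was small.

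Spic, an Ets-family factor found in red pulp macrophages and in ESCs, had 6.22, 6.05 and 6.62 in null lines, against 4.35, 4.93 and 5.15 in heterozygous lines. Its level in 2i/LIF was higher in every line and the genotypes overlapped, at 9.30, 9.07 and 8.02 in JAG1, JAG2 and B12, against 9.06, 9.44 and 8.57 in PAN1, PUM3 and CHE4. Slc1a1, a glutamate transporter, had 5.96, 5.61 and 6.90 in null lines with probe ILMN_1225873, against 4.31 to 5.14 in the heterozygous lines, of which none was detected. A second Slc1a1 probe, ILMN_1229397, was detected on 4 of the 6 arrays, with 6.03, 5.99 and 6.25 in null lines, against 4.47, 4.65 and 5.53 in heterozygous lines. Khdc3, a component of the subcortical maternal complex of the egg that ESCs also express, had 6.86, 7.01 and 7.78 in null lines, against 4.94, 6.35 and 6.30 in heterozygous lines. Its difference was 1.35, and 0.88 without PAN1. Fthl17f, a ferritin-like gene of the X chromosome, had 8.83, 8.93 and 8.82 in null lines, against 6.73, 6.37 and 8.07 in heterozygous lines. Elobl had 6.88, 7.02 and 6.42 in null lines, against 4.54, 5.16 and 5.68 in heterozygous lines. Of these 10 genes, Fbp2 included, 8 were tested in 2i/LIF, and in 1, Rps3, the null lines again lay above all heterozygous lines.

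Below the heterozygous lines, the largest differences of named probes without overlap were those of Plk1, Sox11, Zfp365, Alg8, Dhrs7, Acss1, Gdf1, Amn, Cds1 and Zfp763. Sox11, a SoxC transcription factor of neural and early embryonic cells, had 6.23, 5.87 and 6.45 in JAG1, JAG2 and B12, against 8.65, 8.33 and 7.35 in PAN1, PUM3 and CHE4. Its difference was -1.93 with a standard error of 0.34 (limma, adjusted p = 0.769), and a second probe, ILMN_2616196, differed by -1.03, with B12 at 5.97 just above CHE4 at 5.91. Gdf1, a TGF-beta ligand that works with Nodal, had 6.05, 5.96 and 5.74 in null lines, against 7.20, 7.61 and 6.95 in heterozygous lines (difference -1.33, limma adjusted p = 0.769). Its gene overlaps Cers1, and the probe was not resolved between them. Alg8, a glucosyltransferase of N-glycan assembly, stood at 6.61, 6.49 and 5.62 in null lines, against 8.11, 7.99 and 6.90 in heterozygous lines. The other 3 tested probes of Alg8 differed by 0.00, 0.01 and -0.51. Dhrs7, a short-chain dehydrogenase, stood at 6.73, 6.35 and 7.09 in null lines, against 7.56, 8.22 and 8.59 in heterozygous lines.

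Acss1, a mitochondrial acetyl-CoA synthetase, had 8.37, 8.49 and 6.98 in null lines, against 9.22, 9.14 and 9.67 in heterozygous lines, a difference of -1.39, and -0.91 without B12. Amn, a partner of cubilin in visceral endoderm, had 5.55, 5.99 and 6.51 in null lines, against 7.51, 7.74 and 6.61 in heterozygous lines, so that B12 and CHE4 nearly met. Cds1, a CDP-diacylglycerol synthase, had 6.75, 6.39 and 5.86 in null lines, against 7.53, 7.52 and 7.37 in heterozygous lines. Zfp763 had 4.82, 4.84 and 5.17 in null lines, against 6.35, 6.51 and 5.24 in heterozygous lines, another pair of B12 and CHE4 that nearly met. Plk1, a mitotic kinase, took its difference of -2.05 from B12 alone, at 4.57, while JAG1 and JAG2 had 8.97 and 9.03 and the heterozygous lines 10.02, 9.09 and 9.62. Without B12 the difference was -0.58. Of these 10 genes 9 were tested in 2i/LIF, and in 4 of them, Sox11, Zfp365, Alg8 and Dhrs7, the null lines again lay below all heterozygous lines. In 2i/LIF as a whole the null lines lay above at 5.86% and below at 4.62% of probes. The 2i/LIF arrays are of the same 6 lines and are no independent lines. No probe was called in the interaction of genotype and medium (0 of 15225, 0%, with 550 or 3.61% at an unadjusted p under 0.05). That limma fit did not pair the serum and 2i/LIF arrays of a line, so the spread between lines stayed in its error.

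**Figure D3:**
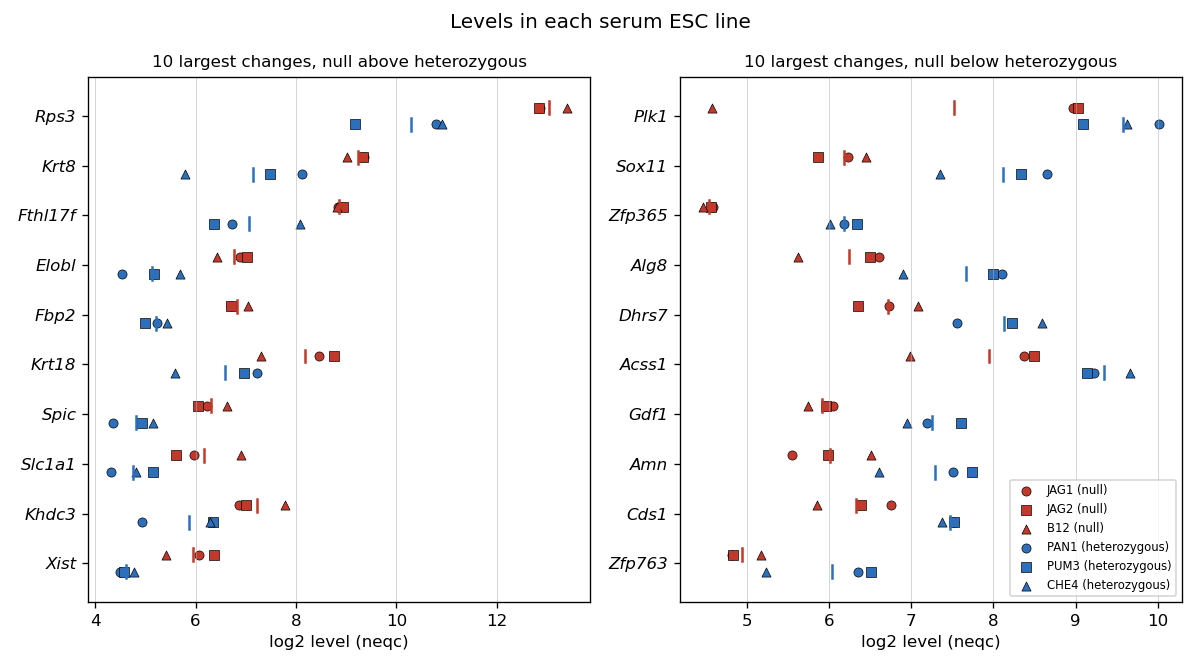
Log2 level in each of the 6 serum ESC lines for the 10 named genes with the largest differences above (left) and below (right) the heterozygous lines among probes without overlap. Points are lines, with null lines drawn above heterozygous lines for each gene, and vertical bars are group means. Differences ran from 1.34 to 2.74 on the left and from -2.05 to -1.09 on the right, and Plk1 shows 1 null line, B12, far from the others.

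Of 25 gene lists, no member was called in any, where a gene counts by its brightest probe only. The shares set beside the lists are over probes. Over 8142 placed genes, 4.41% lay above and 6.51% below the heterozygous lines without overlap. Core pluripotency genes, 13 of 13 tested, had a median difference of 0.00 and a range of -0.21 to 0.51, and none had an unadjusted p under 0.05. Nanog stood at 10.14, 10.23 and 11.28 in null lines, against 10.10, 9.62 and 10.44 in heterozygous lines, and Sox2 at 8.11, 7.99 and 8.78, against 8.51, 9.12 and 7.88. Naive genes, 19 of 22 tested, had a median of 0.17, and none was under 0.05 at that probe. Klf4, a Kruppel-like factor of naive cells, stood at 8.10, 8.04 and 9.02 in null lines, against 7.21, 6.98 and 8.35 in heterozygous lines. A dimmer Klf4 probe, ILMN_1221264, differed by 0.68 (limma, unadjusted p = 0.0348, adjusted p = 0.91). Zfp42 (Rex1), a marker of naive ESCs, varied by line, at 9.02, 9.06 and 8.23 in null lines, against 7.05, 10.19 and 9.77 in heterozygous lines. Klf2 differed by -0.06, with a 95% interval of -0.78 to 0.67.

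Among germ cell genes, 13 of 18 were tested and 1, Tfap2c, lay wholly below the heterozygous lines, beside 5.55% of all probes. Tfap2c, the AP-2 gamma factor that acts with Blimp1 and Prdm14 in germ cell specification, had 9.60, 9.22 and 9.76 in null lines, against 9.81, 10.96 and 10.35 in heterozygous lines. Prdm14 had 6.79, 6.15 and 7.45 in null lines, against 4.38, 5.93 and 6.39 in heterozygous lines, and was not detected in PAN1 (difference 1.23, limma adjusted p = 0.91). Dppa3 (Stella) had 8.59, 8.55 and 6.75 in null lines, against 8.52, 8.98 and 8.57 in heterozygous lines, with B12 the only line below 8. Of 17 Hox and mesoderm genes that germ cells keep silent, 2 were tested, and the other 15 were dim or not analysed here. Of 9 targets of Blimp1 known from lymphocytes 3 were tested, with a median of -0.52 and none under an unadjusted p of 0.05.

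Members of the signalling lists that lay wholly below the heterozygous lines were Dusp4 and Socs3, at an unadjusted p under 0.05 (limma). Each was 1 of 10 tested genes of its list, beside 5.55% of all probes below and 4.49% under that p. In the FGF-ERK list 10 of 15 genes were tested, with a median of -0.24, and Dusp4, a MAP kinase phosphatase, had 7.62, 8.08 and 6.87 in null lines, against 8.17, 8.47 and 9.15 in heterozygous lines. In the LIF-STAT3 list 10 of 11 were tested, with a median of -0.09, and Socs3, the inhibitor that STAT3 induces, had 8.46, 8.31 and 8.19, against 8.68, 8.92 and 8.79. Lefty1, a Nodal antagonist in the epiblast list, had 9.13, 9.14 and 8.62 in null lines, against 11.17, 10.97 and 8.89 in heterozygous lines, so that CHE4 lay with the null lines. DNA methylation genes, 7 of 10 tested, ranged from -0.16 to 0.40, and the 12 tested genes of interferon response and MHC class I from -0.43 to 0.34.

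In the lists of other cell types, the trophectoderm median was above 0 and the primitive endoderm median below 0. Of 9 trophectoderm genes with a probe 4 were tested, with a median of 0.79. Krt8 differed by 2.10 and Krt18 by 1.58, while Ascl2 and Tfap2a lay near 0 or below it, at -0.0047 and -0.18, and their groups overlapped. Cdx2, Eomes and Hand1 were detected in none of the 6 lines. The summed linear signal of the 9 trophectoderm genes ran from 890 to 1308 in null lines and from 299.9 to 611 in heterozygous lines. Krt8 and Krt18 were the brightest of them in every line, so the sum largely repeats their differences and says little on the other genes. Of 12 primitive endoderm genes with a probe 10 were tested, with a median of -0.50, and 4, Amn, Pdgfra, Gata6 and Col4a2, lay below the heterozygous lines without overlap, beside 5.55% of all probes. Their summed signal ran from 1029 to 1353 in null lines and from 1230 to 1949 in heterozygous lines, with CHE4 the lowest heterozygous line. With all 23 arrays normalized together, the same genes summed to 5256 on the fibroblast array, against 1056 to 2010 on the 6 serum arrays, and on it Pdgfra stood at 9.77, Gata6 at 7.81 and Col4a2 at 10.15, while Amn was not detected. Pdgfra is on the fibroblast list too. Lama1, a laminin chain of the endoderm's basement membrane, had 6.65, 6.20 and 7.47 in null lines, against 8.15, 8.43 and 6.97 in heterozygous lines. In 2i/LIF the medians were 0.21 for trophectoderm and 0.22 for primitive endoderm. Fewer cells of a type and less RNA per cell cannot be told apart in these cultures. In the fibroblast list 17 genes were tested, with a median of -0.20, of which 3, Acta2, Col6a1 and Pdgfra, lay wholly below the heterozygous lines and 0 above, beside 5.55% and 4.89% of all probes. Acta2, a smooth muscle actin, had 11.45, 11.40 and 11.04 in null lines, against 11.66, 11.72 and 12.04 in heterozygous lines.

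Imprinted genes, 11 of 20 tested, had 2 members above and 2 below the heterozygous lines without overlap, beside 4.89% and 5.55% of all probes. Peg10, a retrotransposon-derived gene, had 5.85, 5.87 and 6.0 in null lines, against 5.14, 5.10 and 4.91 in heterozygous lines (difference 0.86, limma adjusted p = 0.811). It was detected in only 1 of the heterozygous lines. Mest had 7.36, 7.54 and 7.09 in null lines, against 6.66, 6.86 and 6.66 in heterozygous lines. Phlda2 had 8.55, 8.69 and 8.16 in null lines, against 9.98, 9.31 and 9.19 in heterozygous lines. Igf2r, the other gene below, had 7.97, 8.02 and 7.11 in null lines, against 8.05, 8.27 and 8.19 in heterozygous lines. Of 10 tested p53 targets, 1 lay above and 1 below the heterozygous lines, beside the same shares of all probes. Sesn1 had 7.48, 7.54 and 7.66 in null lines, against 6.74, 7.14 and 7.31 in heterozygous lines. Zmat3 had 8.54, 8.03 and 8.53 in null lines, against 8.72, 8.80 and 8.65 in heterozygous lines.

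Genes of the X chromosome had a median difference above that of each autosome. The median difference of 295 X-linked genes was 0.30 in serum and 0.36 in 2i/LIF, while that of the autosomes ran from -0.06 to 0.02 in serum. Of the X-linked genes, 42 (14.2%) lay above the heterozygous lines without overlap and 4 (1.36%) below, beside 4.41% and 6.51% of all 8142 placed genes. The median level of X-linked genes less that of autosomal genes was -0.05, 0.05 and 0.18 in JAG1, JAG2 and B12, against -0.58, -0.57 and 0.23 in PAN1, PUM3 and CHE4. CHE4 thus had the highest value of all 6 lines, and PAN1 and PUM3 the lowest. Eif2s3y, a gene of the Y chromosome, was detected in PAN1 alone, at 7.57, and was at background in the other 5 lines, PUM3 included. Xist, the RNA that coats the inactive X chromosome, had 6.07, 6.37 and 5.40 in null lines (ILMN_2475156), against 4.50, 4.56 and 4.77 in heterozygous lines, and was detected in all null lines and in no heterozygous line. In 2i/LIF that probe was detected in none of the 6 lines. A second Xist probe, ILMN_1224091, also separated the genotypes in serum, but was detected in CHE4 there, at 5.15, and in B12 in 2i/LIF. The dimmer Xist probes ILMN_3022688 and ILMN_3123341 were detected in serum only in JAG2 and were not tested. On ILMN_3123341 the genotypes overlapped, with B12 at 4.69 and PUM3 at 4.78. Eif2s3x, which escapes X inactivation, had 10.17, 10.35 and 10.06 in null lines, against 9.51, 9.01 and 10.01 in heterozygous lines. The part of X chromosome dosage in the genotype differences was not tested.

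Genes beside Prdm1 lie near the mutant allele, for which the null lines are homozygous. Of 34 tested genes that start within 10 Mb of Prdm1 (chr10:44437174-44528558, GRCm38), 0 were called and 0 differed by more than 2-fold. Their median difference was -0.01 and their range -0.77 to 0.55, and for 28 the 95% interval lay within 2-fold. Null lines lay above in 2 and below in 5, beside 4.41% and 6.51% of all 8142 placed genes. At an unadjusted p under 0.05 (limma) there were 5 of the 34, beside 4.49% of all tested probes. Fam184a, Qrsl1, Afg1l and Wasf1 were lower in null lines and Sesn1 higher. Of the 398 placed genes on chromosome 10, 3.27% lay above and 8.79% below. Qrsl1, a subunit of the mitochondrial glutamyl-tRNA amidotransferase 0.563 Mb from Prdm1, had 7.84, 8.0 and 7.73 in null lines, against 8.88, 8.77 and 8.23 in heterozygous lines.

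Correlations between lines of 1 genotype overlapped those between the genotypes. Pearson's r over tested probes, which are not independent replicates, had a median of 0.958 among the 3 pairs of null lines, 0.944 among the 3 pairs of heterozygous lines and 0.956 among the 9 pairs of a null with a heterozygous line. JAG1 and JAG2 were the closest pair, with r = 0.993 and only 9 probes over 2-fold apart, against 833 and 1090 probes between B12 and JAG1 or JAG2. CHE4, although heterozygous, correlated more with JAG1 (0.981) and JAG2 (0.979) than with PAN1 (0.944) and PUM3 (0.943). In 2i/LIF the medians were 0.973, 0.970 and 0.970 in the same order, and JAG2 and CHE4 again formed a close pair at 0.984. The first principal component, with 40.3% of the variance, set JAG1, JAG2 and CHE4 at -19.0, -24.4 and -29.5 apart from B12, PAN1 and PUM3 at 9.83, 28.3 and 34.8. With JAG1 and JAG2 averaged as 1 replicate, an alternative chosen after seeing the data, 295 probes had an unadjusted p under 0.05 and none was called.

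**Figure D4:**
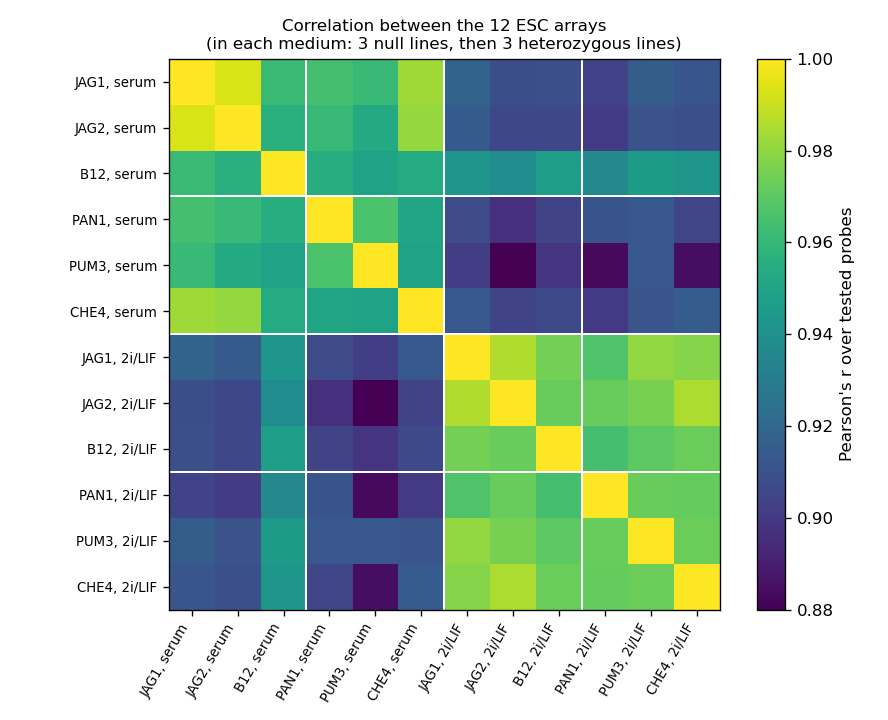
Pearson's r between the 12 ESC arrays over tested probes, with null lines before heterozygous lines in serum and then in 2i/LIF. Colour runs from 0.88 to 1, and in serum JAG1, JAG2 and CHE4 form a block of high r, while B12 in serum has the highest r with the 2i/LIF arrays of any serum line.

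B12 in serum was the line most like the 2i/LIF cultures. Its median r with the 6 arrays in 2i/LIF was 0.943, against 0.911 and 0.908 for JAG1 and JAG2 and 0.906, 0.892 and 0.909 for PAN1, PUM3 and CHE4. Ddit3 (CHOP), a stress-induced transcription factor, had 10.46, 10.42 and 6.59 in JAG1, JAG2 and B12, against 9.18, 9.50 and 11.02 in PAN1, PUM3 and CHE4, and between 6.0 and 6.74 in all 6 lines in 2i/LIF. A second Ddit3 probe, ILMN_2927373, gave the same order for B12, at 5.48, the lowest line. Padi6, a component of the egg's cytoplasmic lattices, had 7.88, 8.77 and 4.32 in null lines, against 6.51, 5.86 and 7.33 in heterozygous lines, and was not detected in 2i/LIF in any line. Erich5 had 11.29, 11.36 and 10.38 in null lines, against 8.42, 8.21 and 11.75 in heterozygous lines, with CHE4 the highest of the 6 lines. Trh, the thyrotropin-releasing hormone precursor, had 7.90, 8.30 and 9.20, against 11.79, 9.95 and 7.38, and Aqp3, a water and glycerol channel, 9.86, 10.15 and 7.52, against 6.88, 8.43 and 10.89.

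A few probes were at background in some lines and well above it in others, in both media. Of 13527 tested probes, 66 ranged over at least 3 log2 units among the 6 serum lines, where the median range was 0.75. When each was split at its widest gap, the low and high lines stayed apart in 2i/LIF for 28 of 66, and for 16 of the 17 that also ranged over 3 units there. The count of 28 takes any gap in 2i/LIF, also at background. Krt18 was counted, although it ranged over 0.58 there and was detected in none of the 6 lines. The share for all tested probes is not given, so 28 is no measure of a stable pattern. The split coincided with genotype at 2 of the 66, the Rps3 probe ILMN_2594103 and ILMN_2733542. Thumpd1 had 7.91, 7.91 and 9.02 in JAG1, JAG2 and B12, against 4.46, 8.13 and 4.46 in PAN1, PUM3 and CHE4, and in 2i/LIF 8.22, 8.39 and 9.32, against 4.50, 8.23 and 4.57. Mettl14, a subunit of the N6-methyladenosine writer, was at background in JAG1, JAG2 and CHE4 in both media, with serum levels of 4.60, 4.37 and 7.11 in null lines, against 6.92, 7.99 and 4.55 in heterozygous lines. Mak16, a ribosome biogenesis factor, was at background in PUM3 and CHE4 with probe ILMN_3009910, at 4.39 and 4.75, while its other 2 probes ranged over only 0.52 and 0.69 among the 6 lines. Of the 66 probes, 15 had another tested probe of the same gene, and for 4 of them that probe ranged over less than 1 unit. Whether strain variants under a probe contributed was not tested.

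**Figure D5:**
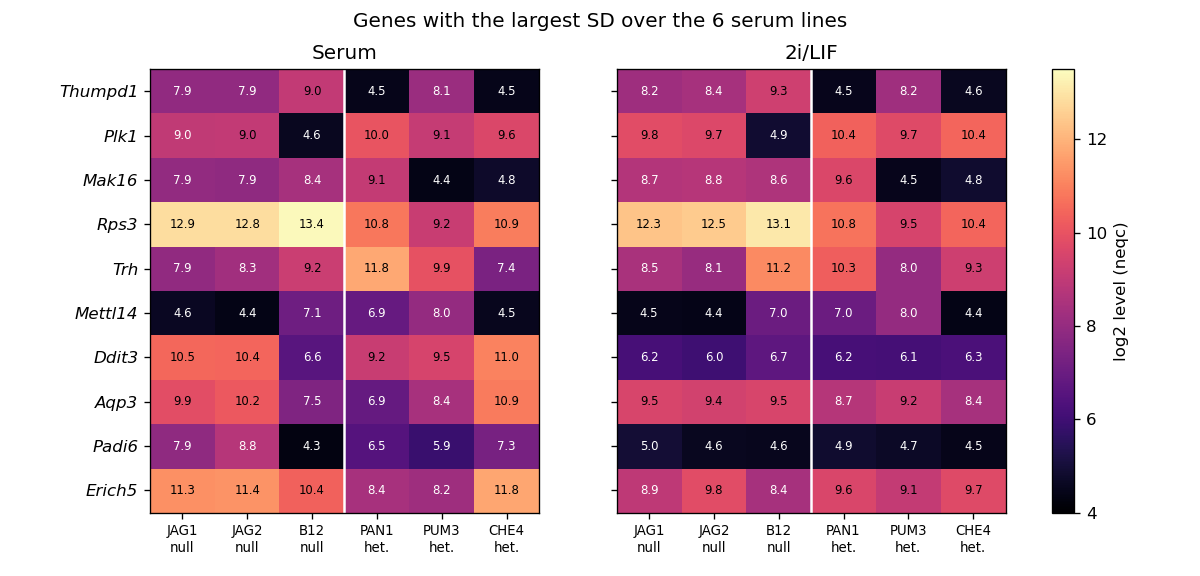
Log2 level of the 10 genes with the largest SD over the 6 serum lines, in serum (left) and 2i/LIF (right), with the 3 null lines left of the 3 heterozygous lines. Thumpd1, Plk1, Mak16, Rps3 and Mettl14 keep their low lines in both media, whereas Ddit3 and Padi6 are low in every line in 2i/LIF and, of the serum lines, in B12.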

How the data were processed

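The deposited table holds, per the file headers, each bead summary signal as an intensity, not normalized, with a detection p-value for each of 45281 probes. The authors' value table holds log2-scale values, which per the study's methods were variance-stabilised and quantile normalized with lumi, and served as an alternative. The 2 remaining value columns matched no sample and were not used. Signals of the 6 arrays were background corrected, quantile normalized and log2 transformed with neqc (limma 3.58.1, statmod 1.5.0, R 4.3.3, offset 16, negative controls inferred from the detection p-values). Probes with a detection p under 0.01 on at least 3 arrays were fitted with lmFit and eBayes on 2 groups. Arrays of 2i/LIF, epiSC and rESC lines were normalized and fitted per comparison, and their levels came from neqc over 22 arrays. Array number limits the precision. With 1 array a line, p-values measure the spread between lines, which may share an embryo. Platform annotation gave 1 symbol to 17604 probes, several to 8 and none to the rest, and 17584 matched RefSeq. Named genes were Fbp2, the genes the study followed, the 10 largest differences each way among named probes without overlap, the 10 genes with the largest SD over lines, and list members. The genes of smallest p and a stress list were added after their values were seen. The members, lists and tests were chosen with earlier results of these data known. Scripts were tested on simulated data. Alternatives are given in the closing section.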

Additional observations from a re-analysis of the deposited data

How the results depend on the processing

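All 20 genes named for the largest differences kept their direction under every setting run. They were chosen for null and heterozygous lines that do not overlap, so leaving out, weighting or averaging lines leaves little room for a turn. The kept direction is therefore no support for them. The differences of these genes were smaller without background correction. The median ratio to the reported difference was 0.648 with quantile normalization alone and 0.545 in the authors' value table. The serum comparison called 1 probe with neqc over 12 arrays, 1 over 22 arrays and 2 with array weights, against 0 otherwise, and between 0 and 0 without any 1 line. Probes with an unadjusted p under 0.05 numbered 356 to 2106 without 1 line, 2649 with array weights, 2325 without the filter, and 964 and 917 with neqc over 12 and 22 arrays. Calls in 2i/LIF ranged from 0 to 1 without 1 line, and in epiSCs from 0 to 0, against 58 with all lines. The median r between genotypes was 0.970 in the authors' value table, against 0.956. Directions turned for Ddit3 (0.70 with array weights, -1.40 to 0.54 without 1 line), Zfp42 (0.22 and -1.22 to 0.36), Padi6 (-0.25 with JAG1 and JAG2 averaged, -0.47 to 1.76 without 1 line) and Klf2 (0.055 and -0.35 to 0.18). They also turned without 1 line for Aqp3 (-0.48 to 1.52) and Sox2 (-0.52 to 0.10). The cause was not tested. The labels do not say whether the numbers in the titles mark a shared source. With these numbers as a replicate block 0 probes were called (limma, smallest adjusted p = 0.998). The Fbp2 difference stayed at 1.60, which a block balanced over genotype cannot change, with an adjusted p of 0.998 (limma). Deviations of same-numbered lines correlated at -0.16, -0.21 and -0.25, and no null line matched the heterozygous line of its own number best. With so few lines, these correlations cannot decide whether a number marks a shared source. Slide could not be fitted as a block, since the headers used here give none. A filter on detection in all 6 arrays left Fbp2 and Zfp365 untested. Signals near background limited both genes.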
